A study of Mus musculus with 12 samples.

Results

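Liver RNA was compared between Abcb4 knockout mice given hyodeoxycholic acid (HDCA), called Abcb4KO_HDCA, and Abcb4 knockout mice given none, called Abcb4KO. The comparison rests on 6 of the 12 libraries of the series, 3 a side, chosen by their titles, and on 10655 of the 16970 genes in the deposited table, those that reached an FPKM (fragments per kilobase, scaled to the mapped total of the library) of 1 in 3 or more of the 6 libraries. The series description gives Abcb4-/- mice of 60 days of age and, for the treated group, HDCA at 100 mg/kg for 21 days. The other 6 libraries are from mice with a ligated bile duct (BDL), without and with HDCA at 100 mg/kg for 4 days, and are used below only to show where the response differs. In all 6 the ligation lasted 7 days, and in the treated ones HDCA followed a wait of 3 days. The titles of the libraries compared read MDR and MDR_H, and no label of a library names Abcb4, the strain, the sex, the vehicle, the hour of collection or the number of animals. The replicates are not said to come from separate animals, so a p-value here weighs only the spread of these libraries. Abcb4KO replicate 1 stood apart in Y-linked reads (below), so it is not a repeat of the same RNA as the others. Among the other libraries of a group the spread is possibly a technical one. Wild-type liver was not analysed here.

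Abcb4 is the canalicular transporter that moves phosphatidylcholine into bile, and without it bile acids injure the small bile ducts, with proliferation of duct cells and periportal fibrosis. HDCA is a hydroxylated, hydrophilic bile acid abundant in pigs. Bile acids act on liver through receptors such as FXR (Nr1h4), which induces the repressor SHP (Nr0b2) and through it restrains bile acid synthesis. Hepatocytes also carry a circadian clock, in which BMAL1 and CLOCK switch on their own repressors and a family of output factors, and they answer the pulses of growth hormone with IGF1 and with sex-specific sets of cytochromes P450.

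The FPKM of Abcb4 (GRCm38 chromosome 5, 8893717 to 8959231) was 181, 150.1 and 162 in Abcb4KO and 165, 155 and 129 in Abcb4KO_HDCA, and it ran from 52.8 to 178 in the BDL libraries. It was not low in either group, so this value does not bear out the knockout, and the names Abcb4KO and Abcb4KO_HDCA stand throughout for the libraries labelled MDR and MDR_H. Reads recovered from the FPKM steps came to 34260782 to 39386291 per library. Abcb4KO replicate 1 stood apart: its summed FPKM over 4 Y-linked genes was 20.1, against 0 to 0.016 in the other 5 libraries, so values are given with and without it. The hepatocyte list held 77546 to 97801 FPKM in sum, while markers of pancreas, fat, muscle and of gallbladder and mesothelium summed to at most 11.9 FPKM each in any library. Differences are log2 changes of FPKM + 1, HDCA minus none, with the standard error (SE) of the limma fit, and they understate the change of low genes.

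No gene passed the test. limma called 0 of 10655 genes (0.00%) at an adjusted p under 0.05, as did limma-voom on the recovered reads, and every gene named below had an adjusted p of 1.00 in that fit. At an unadjusted p under 0.05 stood 172 genes (1.61%), 62 higher and 110 lower with HDCA. Median-of-ratios scaling turned that split to 105 higher and 65 lower, and quantile normalization to 107 and 82, either of which brings the median log2 change of all genes, -0.04 with 35.9% of genes higher, to 0.00. The 3 HDCA libraries lay wholly above the 3 untreated ones for 142 genes (1.33%) and wholly below them for 490 (4.60%). Without Abcb4KO replicate 1 limma again called 0 genes (smallest adjusted p = 0.9985), with 353 genes at an unadjusted p under 0.05 (3.31%), 370 wholly above (3.47%) and 1507 wholly below (14.1%). Without Abcb4KO_HDCA replicate 1 there were 327 genes at an unadjusted p under 0.05. The words higher and lower below describe these libraries, not called changes. Among genes whose higher group averaged 2 FPKM or more and whose groups did not overlap, leaving aside unnamed predicted genes, the lowest p on the lower side belonged to the glutathione transferase Gsta1, the clock repressor Nr1d1, Klhdc7a and the clock outputs Dbp and Tef, and on the higher side to Igf1, the glucuronosyltransferase Ugt2b37, the IGF1 partner Igfals and hepcidin (Hamp).

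**Figure D1:**
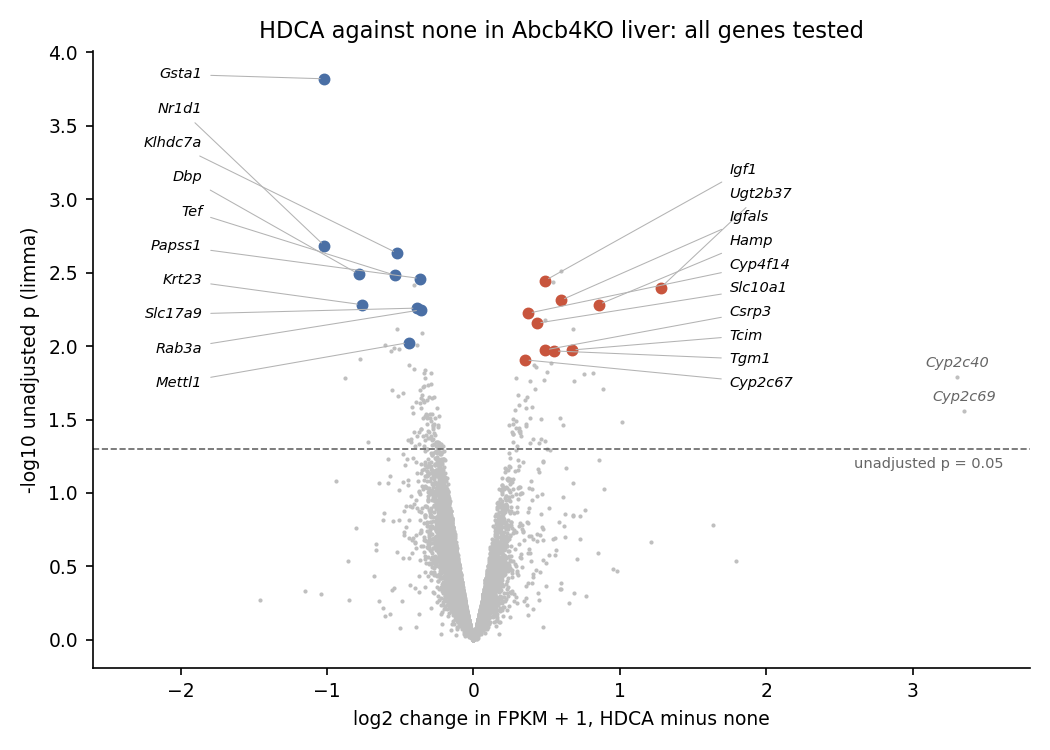
Each point is 1 of the 10655 genes tested, with the log2 change of FPKM + 1 (HDCA minus none) on the horizontal axis and -log10 of the unadjusted limma p on the vertical axis. Coloured points are the 10 genes of smallest p in each direction whose groups do not overlap and whose higher group averaged 2 FPKM or more, unnamed predicted genes left out, and the dashed line marks an unadjusted p of 0.05. Gsta1 and Nr1d1, both at -1.02, lie farthest left among the blue points, and Cyp2c40 (3.30) and Cyp2c69 (3.35) lie far to the right.

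Genes of the circadian clock made up 3 of the 10 genes named for lowest p on the lower side. Nr1d1 (REV-ERB alpha, chromosome 11, 98767932 to 98775333), a nuclear receptor that represses Arntl (BMAL1), had 16.7, 24.1 and 16.9 FPKM in Abcb4KO and 8.53, 12.4 and 6.49 in Abcb4KO_HDCA. The highest treated library lay below the lowest untreated one, and the log2 change was -1.02 ± 0.23 (-1.10 ± 0.25 without Abcb4KO replicate 1). Dbp (chromosome 7, 45705088 to 45710203), a PAR bZIP transcription factor and output of the clock, was at 1.41, 2.88 and 2.38 FPKM without and 1.09, 0.647 and 0.797 with HDCA. Its groups did not overlap either, at a log2 change of -0.78 ± 0.19. Tef (chromosome 15, 81802421 to 81826863), of the same family, was at 6.24, 8.19 and 8.65 FPKM without and 5.24, 4.98 and 4.66 with HDCA, a change of -0.54 ± 0.13. In Tef and Dbp the untreated replicate 1 lay nearest to the treated libraries, and without it the changes were -0.66 ± 0.11 and -0.98 ± 0.15. Nr1d2 (REV-ERB beta), which shares the role of Nr1d1, was at 8.49, 10.0 and 9.04 FPKM without and 8.36, 5.85 and 4.59 with HDCA. Its treated replicate 1 lay just under the untreated libraries while the other two were well below them.

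Other clock genes differed less or the other way. Npas2, which can stand in for CLOCK as the partner of BMAL1, was at 2.47, 2.64 and 2.49 FPKM without and 2.67, 3.90 and 3.57 with HDCA, wholly above (0.30 ± 0.13). Arntl itself was at 1.61, 1.81 and 1.49 FPKM without and 1.76, 2.06 and 2.08 with HDCA (0.17 ± 0.11), and the groups overlapped. Nfil3, a repressor that competes with the PAR bZIP factors for their sites, was at 7.91, 6.32 and 6.68 FPKM without and 5.74, 12.3 and 11.2 with HDCA, with treated replicate 1 below all others. Per1, a repressor of CLOCK and BMAL1, overlapped widely, from 0.476 to 2.88 FPKM without and from 1.90 to 3.40 with HDCA. Of the 19 clock genes tested, 10 were higher and 9 lower (median log2 change 0.01, against -0.04 over all genes, and -0.03 against -0.06 without Abcb4KO replicate 1). Wholly below were 6 (Nr1d1, Dbp, Tef, Nr1d2, Cry2 and Clock), beside 4.60% of all genes, and wholly above was 1, Npas2, beside 1.33%. For Cry2 and Clock the differences were small (-0.15 ± 0.09 and -0.06 ± 0.09). Clock, Cry2, Npas2, Nfil3 and Per1 were chosen after their values were seen.

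The proximal promoters of Nr1d1, Dbp and Tef, the clock genes of lowest p, are shown because BMAL1 and CLOCK act through the E-box CACGTG. Each line holds the 250 bases before a RefSeq start of transcription (GRCm38.p6), on the strand of the gene, 5′ to 3′, with any E-box in capitals. Tef has 2 RefSeq starts and is shown at both.
Nr1d1 (chr11:98775378-98775627, minus strand): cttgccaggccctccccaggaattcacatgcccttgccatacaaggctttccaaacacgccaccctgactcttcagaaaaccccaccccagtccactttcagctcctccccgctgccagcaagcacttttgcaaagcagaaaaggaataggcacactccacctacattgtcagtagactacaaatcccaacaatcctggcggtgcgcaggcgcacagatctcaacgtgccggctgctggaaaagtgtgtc
Dbp (chr7:45704997-45705246, plus strand): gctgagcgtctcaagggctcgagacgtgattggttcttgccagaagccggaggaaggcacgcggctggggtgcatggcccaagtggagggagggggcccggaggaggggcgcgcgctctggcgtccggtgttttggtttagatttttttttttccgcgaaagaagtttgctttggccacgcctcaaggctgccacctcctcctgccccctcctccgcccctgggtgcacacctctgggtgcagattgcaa
Tef, first start (chr15:81802423-81802672, plus strand): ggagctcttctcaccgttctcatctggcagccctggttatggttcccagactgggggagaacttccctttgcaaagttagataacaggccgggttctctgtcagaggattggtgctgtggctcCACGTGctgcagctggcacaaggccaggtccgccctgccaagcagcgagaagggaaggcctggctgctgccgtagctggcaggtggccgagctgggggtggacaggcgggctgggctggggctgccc
Tef, second start (chr15:81811164-81811413, plus strand): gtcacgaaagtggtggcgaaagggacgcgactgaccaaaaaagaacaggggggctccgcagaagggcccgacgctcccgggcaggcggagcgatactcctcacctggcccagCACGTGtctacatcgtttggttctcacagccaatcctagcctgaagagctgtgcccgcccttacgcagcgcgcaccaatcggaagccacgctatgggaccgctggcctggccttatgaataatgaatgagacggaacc
The exact sequence CACGTG stands in both windows of Tef, starting 127 and 138 bases before the start, and in neither of the other two. Variants of it and bases outside these windows were not searched, so a window without it does not show that the gene lacks an E-box. CACGTG, which reads the same on both strands, was found in 6.02% of all 32851 promoter windows of 250 bases. The half-site AGGTCA of nuclear receptors, searched on both strands, was in 14.0% of all windows. It stood in the single window of Nr1d2, 77 bases before the start, and in 1 of the 3 windows of Clock, 119 bases before the start. It was in none of the 4 windows shown. The D-box TTATGTAA, bound by DBP and TEF, was in 0.819% of windows and in none of the 12 windows of the 8 clock genes searched. A match here is only a match of letters.

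**Figure D2:**
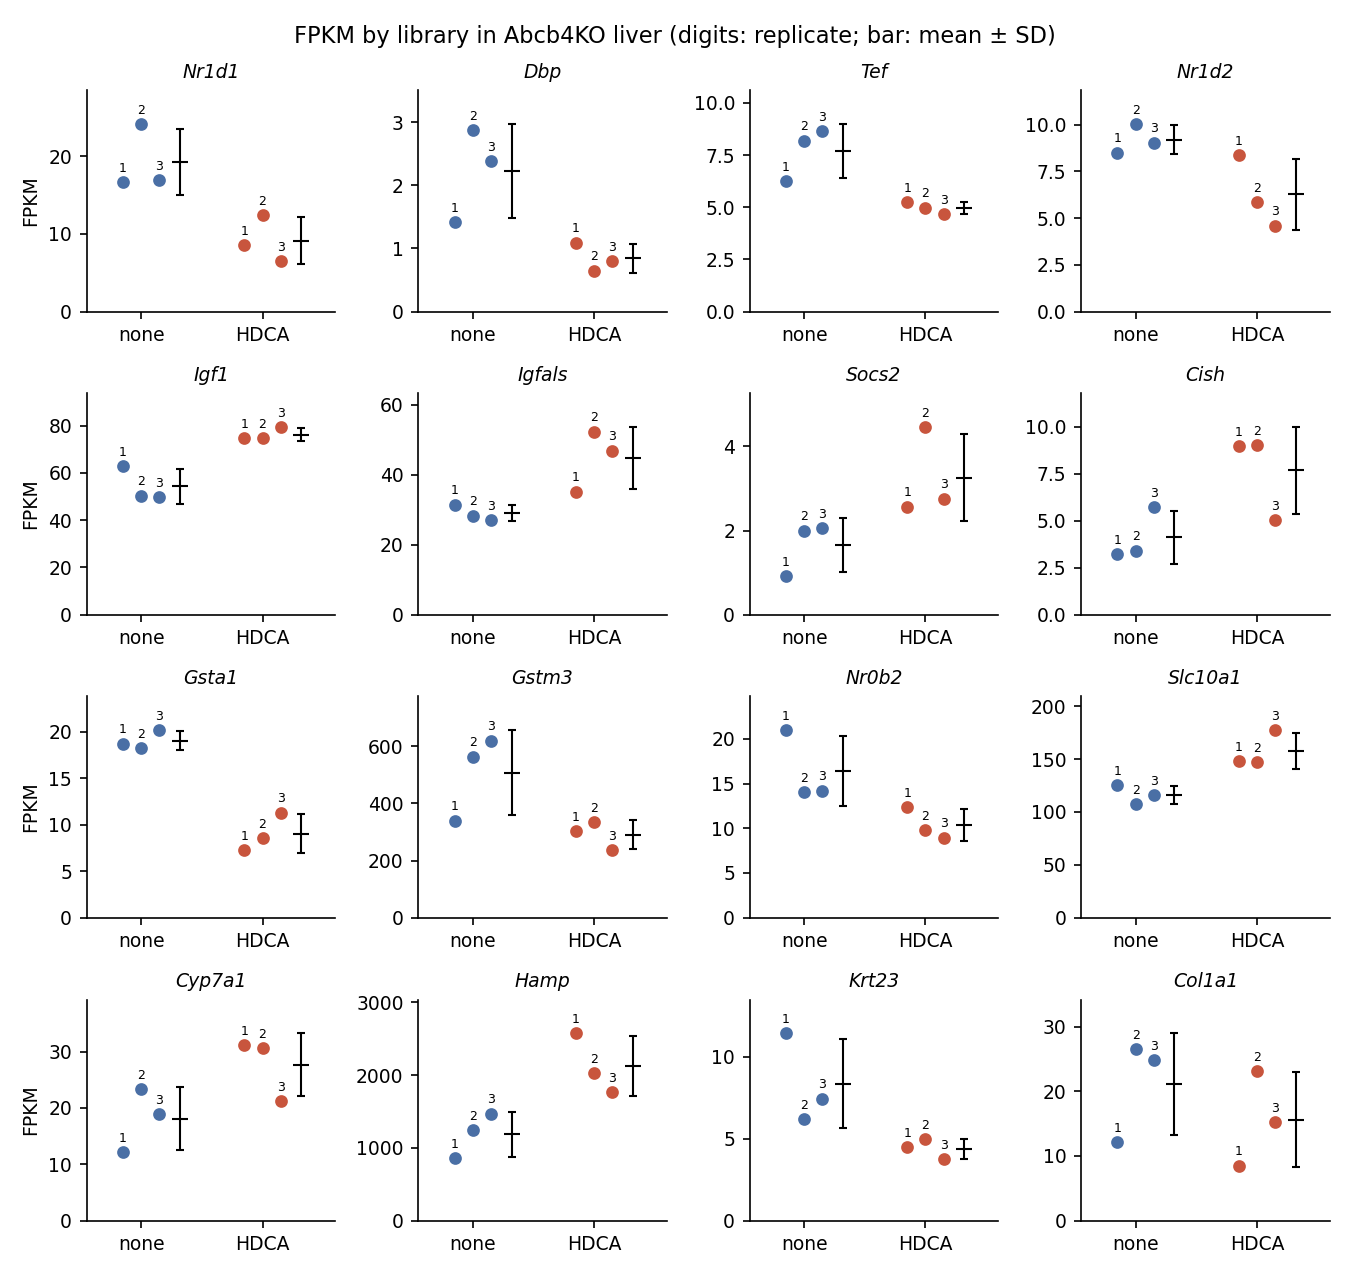
FPKM of 16 genes in each library, with untreated libraries in blue, HDCA libraries in red, replicate numbers beside the points, and the mean ± SD of each group (n = 3) as a bar to the right. For Nr1d1, Dbp, Tef and Gsta1 the 3 red points lie below all blue ones, for Igf1 they lie above (74.6 to 79.3 against 49.6 to 62.8), and for Cyp7a1, Cish and Col1a1 the groups overlap.

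Igf1, Igfals and Socs2, which respond to growth hormone, were each higher in all 3 HDCA libraries than in any untreated one. Igf1 (chromosome 10, 87858265 to 87937042), the growth factor made by liver under growth hormone, had 62.8, 50.4 and 49.6 FPKM without and 74.7, 74.6 and 79.3 with HDCA. The treated libraries lay close together and wholly above, and the log2 change was 0.49 ± 0.12 (0.60 ± 0.11 without Abcb4KO replicate 1). Igfals, which holds IGF1 in a stable complex in blood, was at 31.5, 28.3 and 27.1 FPKM without and 35.2, 52.4 and 46.9 with HDCA (0.60 ± 0.15). Treated replicate 1 was again the nearest to the untreated libraries. Socs2, a feedback inhibitor induced through STAT5, was at 0.910, 2.00 and 2.06 FPKM without and 2.56, 4.46 and 2.75 with HDCA (0.69 ± 0.23). Cish, another such inhibitor, was at 3.22, 3.40 and 5.71 FPKM without and 8.98, 9.03 and 5.02 with HDCA (0.76 ± 0.25), where replicate 3 overlapped. Ghr, the receptor, had a mean of 83.1 ± 12.2 FPKM (SD, n = 3) in Abcb4KO and 90.6 ± 3.54 in Abcb4KO_HDCA. Of 16 genes of this axis tested, 11 were higher (median 0.09), and 8 without Abcb4KO replicate 1 (median 0.05). Wholly above were 4, Igf1, Igfals, Socs2 and the binding protein Igfbp4 (0.11 ± 0.10), beside 1.33% of all genes, and wholly below was the transducer Stat5b (-0.12 ± 0.10). Igfbp4 and Stat5b were chosen after their values were seen.

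Glutathione transferases, which couple electrophiles and oxidised lipids to glutathione and include many targets of NRF2, held the gene of smallest p. Gsta1 (chromosome 9, 78230656 to 78242684) was at 18.7, 18.2 and 20.2 FPKM without and 7.25, 8.52 and 11.3 with HDCA. The groups stood well apart, at a log2 change of -1.02 ± 0.15 (-1.03 ± 0.18 without Abcb4KO replicate 1). Gstm3 (chromosome 3, 107963696 to 107969283) was far more abundant, at 339, 564 and 619.9 FPKM without and 302, 334 and 235 with HDCA. There untreated replicate 1 came within reach of the treated libraries, and the change was -0.77 ± 0.24 with it and -1.04 ± 0.17 without it. Gstm4 (-0.21 ± 0.10) and Srxn1, sulfiredoxin, which restores peroxiredoxins (-0.39 ± 0.18), were also wholly below. Of 21 NRF2 and glutathione genes tested, 17 were lower (median -0.08, against -0.04 over all genes). The members named here are only the 4 wholly below, beside 4.60% of all genes, and do not stand for the list. With Abcb4KO replicate 1 left out, 17 were lower (median -0.18, against -0.06 over all genes) and 8 wholly below, beside 14.1%. Members of the alpha and mu classes are close in sequence, and how reads that match several of them were counted is not given in the sources used here.

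Among bile acid genes the repressor Nr0b2 was lower and the uptake carrier Slc10a1 higher. Nr0b2 (SHP, chromosome 4, 133553376 to 133556536) was at 21.0, 14.1 and 14.2 FPKM without and 12.4, 9.77 and 8.96 with HDCA, wholly below (-0.60 ± 0.18, and -0.42 ± 0.15 without Abcb4KO replicate 1, the highest library). Mafg, a repressor that FXR also induces, was at 7.51, 7.12 and 6.96 FPKM without and 5.74, 6.05 and 6.71 with HDCA (-0.20 ± 0.10). Nr1h4, FXR itself, averaged 41.0 ± 1.81 FPKM (SD, n = 3) in Abcb4KO and 46.2 ± 5.73 in Abcb4KO_HDCA, with overlapping groups. Of 11 receptor and feedback genes tested, 5 were higher and 6 lower (median -0.01). Nr0b2 and Mafg were the 2 wholly below, beside 4.60% of all genes. With Abcb4KO replicate 1 left out, 2 were wholly below, beside 14.1%.
Cyp7a1 (chromosome 4, 6265612 to 6275633), the enzyme that limits the rate of bile acid synthesis and a target of SHP, was at 12.1, 23.3 and 18.8 FPKM without and 31.2, 30.6 and 21.2 with HDCA. Its treated replicate 3 lay below untreated replicate 2, and the change was 0.61 ± 0.24, or 0.36 ± 0.19 without Abcb4KO replicate 1, the lowest library. Cyp8b1, which sets the cholic acid share, was at 225, 64.0 and 128 FPKM without and 157, 163 and 234 with HDCA. It overlapped only through untreated replicate 1 (0.56 ± 0.40, and 0.99 ± 0.30 without it). Cyp27a1, the first enzyme of the acidic pathway, differed by 0.05 ± 0.14, and Cyp2c70, which makes muricholic acids, by 0.21 ± 0.17. Of 14 synthesis genes tested, 8 were higher and 6 lower (median 0.05), and 0 were wholly above or below, beside 1.33% and 4.60% of all genes. With Abcb4KO replicate 1 left out, 9 were higher (median 0.13) and 4 wholly above, beside 3.47%.

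Slc10a1 (NTCP, chromosome 12, 80953183 to 80968705), the sodium-coupled carrier that takes bile acids up from blood, was at 125, 107 and 116 FPKM without and 148, 147 and 177 with HDCA. Every treated library lay above every untreated one, and the change was 0.43 ± 0.12 (0.49 ± 0.14 without Abcb4KO replicate 1). Abcb11, the bile salt export pump and an FXR target, was at 137, 132 and 142 FPKM without and 128, 121 and 103 with HDCA, wholly below by a small margin (-0.23 ± 0.12). Slc51b, a subunit of the basolateral bile acid exporter that FXR induces, was at 4.69, 10.6 and 6.93 FPKM without and 6.03, 4.88 and 2.75 with HDCA (-0.58 ± 0.30), and untreated replicate 1 overlapped. Of 17 transport genes tested, 9 were higher and 8 lower, with Slc10a1 the only one wholly above, beside 1.33% of all genes, and Abcb11 the only one wholly below, beside 4.60%. With Abcb4KO replicate 1 left out, 7 were higher and 10 lower, with 2 wholly above (beside 3.47%) and 3 wholly below (beside 14.1%).

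Sex-biased liver genes, which follow the sex-specific rhythm of growth hormone, differed more between libraries than between treatments. All 18 female-biased genes tested were lowest in Abcb4KO replicate 1, the library with Y-linked reads, and in 13 of them Abcb4KO_HDCA replicate 1, which lacks such reads, was second lowest. Of 23 male-biased genes, 21 were highest in Abcb4KO replicate 1 with Abcb4KO_HDCA replicate 1 second. Against the mean of untreated replicates 2 and 3, the median male-biased gene lay 2.88 higher (log2) in untreated replicate 1 and 1.56 higher in treated replicate 1, against 0.30 and 0.10 in treated replicates 2 and 3. The direction of both lists turned on 1 library. With all 6 libraries, 16 of 18 female-biased genes were higher with HDCA (median 0.46) and 16 of 23 male-biased genes lower (median -0.37). Once it was left out, 12 of 18 female-biased genes were lower (median -0.17) and 21 of 23 male-biased genes higher (median 0.72), of which 9 wholly, beside 3.47% of all genes. Without the replicates numbered 1 of both groups, 12 of 18 female-biased (median 0.36) and 13 of 23 male-biased genes (median 0.20) were higher.

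**Figure D3:**
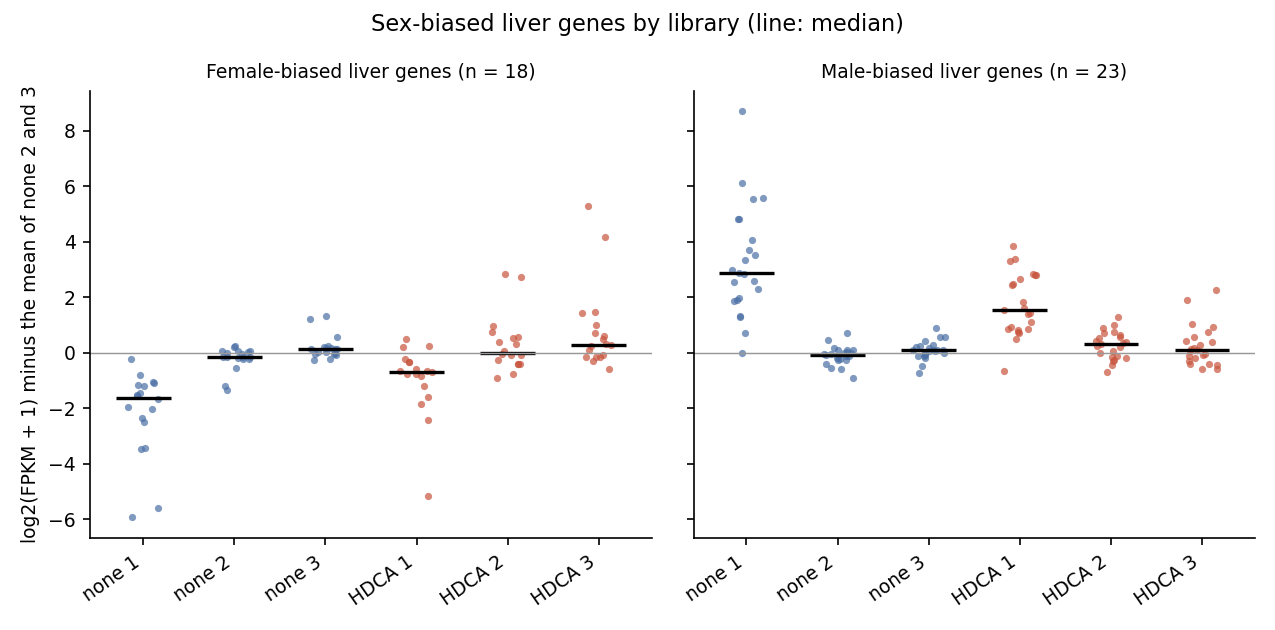
Each point is a gene, by library, with log2(FPKM + 1) minus the mean of untreated replicates 2 and 3 on the vertical axis and a line at the median. Untreated replicate 1 holds the lowest female-biased values (median -1.61) and the highest male-biased ones (median 2.88), and HDCA replicate 1 lies between it and the other 4 libraries (-0.68 and 1.56).

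Single genes of these lists show the same order. Cyp2a4, a female-biased steroid hydroxylase, was at 0.510, 65.2 and 80.7 FPKM without and 12.7, 122 and 200.2 with HDCA. Elovl3, a male-biased fatty acid elongase, was at 249, 3.49 and 5.03 FPKM without and 31.9, 4.40 and 2.50 with HDCA, and Serpina1e, a male-biased protease inhibitor, at 3606, 34.1 and 75.1 without and 542, 101 and 248 with it. These 3 were chosen after their values were seen. Slco1a1, a male-biased organic anion carrier, was at 54.0, 2.20 and 6.07 FPKM without and 45.8, 10.6 and 16.6 with HDCA. Apart from untreated replicate 1, its treated libraries were all higher (2.16 ± 0.56).
Among the lowest p without Abcb4KO replicate 1, several genes were highest in that library and higher with HDCA than in the untreated libraries that remained. They included Serpina3k, a serpin (6747, 2193 and 2142 FPKM without and 5259.6, 3756 and 4299 with HDCA, 1.02 ± 0.17), and the pheromone carrier Mup3 (1.10 ± 0.23). With them stood the conjugating enzyme Ugt2b1 (0.95 ± 0.24), the carboxylesterase Ces3b (0.93 ± 0.18), the complement component C8b (0.68 ± 0.17) and Keg1 (0.65 ± 0.16). With all 6 libraries these changes were 0.47 ± 0.42, 0.25 ± 0.63, 0.18 ± 0.58, 0.36 ± 0.43, 0.24 ± 0.34 and 0.22 ± 0.33 in the same order.

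Cyp2c40 (chromosome 19, 39767071 to 39812814), a female-biased cytochrome P450 that oxidises arachidonic acid, gave one of the widest differences. It was at 0.0784, 1.66 and 13.1 FPKM without and 7.59, 39.5 and 111 with HDCA, a log2 change of 3.30 ± 1.09. The groups overlapped, and in each the value rose with the replicate number. Within the same-numbered pairs the treated library was higher by 2.99, 3.93 and 2.99. With the replicate number as a block, Cyp2c40 was the single gene called (limma adjusted p = 0.026). No label pairs these libraries. The pairs were taken from the same values that the block was then fitted to, so this call is not independent of that choice. Its neighbour Cyp2c69 was at 0.0479, 0.332 and 7.50 FPKM without and 2.92, 23.3 and 132 with HDCA (3.35 ± 1.25). Both genes have near-identical copies, so reads may be split among them. Cyp2c67, of the same cluster, was at 104, 94.9 and 109.6 FPKM without and 142, 124 and 129 with HDCA, wholly above (0.35 ± 0.11).

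Collagens, markers of bile duct cells and cell cycle genes were lower with HDCA in most members, and 0 of them were called. Within the pairs numbered 1, 2 and 3 the median difference was -0.39, -0.18 and -0.36 for collagens, -0.09, -0.30 and -0.27 for bile duct markers and -0.18, -0.22 and -0.13 for cell cycle genes, against 0.04, -0.09 and -0.07 over all genes. These pairs are not in the labels. They were taken from the values of these libraries, so differences within them are no separate support. All 16 collagen genes tested were lower (median -0.31, against -0.04 over all genes), and 1 was wholly below, beside 4.60%. Col1a1, the main chain of fibrillar type I collagen, was at 12.2, 26.5 and 24.8 FPKM without and 8.52, 23.1 and 15.3 with HDCA (-0.44 ± 0.38), and Col3a1, of type III, at 39.2, 74.9 and 61.3 without and 29.4, 66.1 and 42.8 with it. Library 1 was the lowest of both groups and the groups overlapped. Within the same-numbered pairs the treated library was lower each time, by a log2 difference of -0.47, -0.19 and -0.67 for Col1a1 and -0.40, -0.18 and -0.51 for Col3a1. Col5a3, a minor fibrillar chain, was the one wholly below, at 4.26, 2.97 and 3.18 FPKM without and 2.30, 2.61 and 2.50 with HDCA (-0.35 ± 0.13). Leaving out Abcb4KO replicate 1, the collagen median was -0.47 and 10 of 16 were wholly below, beside 14.1%. Without Abcb4KO_HDCA replicate 1 it was -0.09, without Abcb4KO replicate 2 it was -0.19, and without Abcb4KO_HDCA replicate 2 it was -0.49. Of 43 other matrix and remodelling genes, 38 were lower (median -0.15), among them fibronectin, Fn1, at 251, 223 and 229 FPKM without and 174, 199.5 and 218 with HDCA (-0.25 ± 0.12). Wholly below were 2 of the 43, beside 4.60% of all genes. All 43 were lower once Abcb4KO replicate 1 was left out (median -0.35), as were 7425 of all 10655 genes (median -0.06). In that setting 12 of the 43 were wholly below, beside 14.1%. The median of the 43 was 0.00 without Abcb4KO replicate 2, -0.05 without Abcb4KO_HDCA replicate 1 and -0.32 without Abcb4KO_HDCA replicate 2. Markers of stellate cells and myofibroblasts, the source of much of this matrix, summed to 217.6 to 334.0 FPKM without and 255.8 to 303.2 with HDCA. Of 20 such markers tested, 13 were lower (median -0.05), and 0 were wholly above or below. With Abcb4KO replicate 1 left out, 16 were lower (median -0.19) and 5 wholly below, beside 14.1%. The part of these cells in the matrix values was not tested. In whole liver, fewer cells of a type and less RNA per cell cannot be told apart.

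Of 26 cholangiocyte and ductular markers tested, 24 were lower (median -0.24) and 5 wholly below, beside 4.60% of all genes. Krt23 (chromosome 11, 99477974 to 99493137), a keratin of the ductular reaction and of stressed hepatocytes, was at 11.4, 6.19 and 7.45 FPKM without and 4.48, 4.96 and 3.73 with HDCA. It was the only marker among the 10 lowest p on the lower side (-0.76 ± 0.20, and -0.54 ± 0.14 without Abcb4KO replicate 1, its highest library). Krt8, one of the keratin pair of simple epithelia and hepatocytes, was at 465, 480.4 and 491 FPKM in Abcb4KO and at 446, 414 and 233 in Abcb4KO_HDCA. Its partner Krt18 was at 387, 403 and 397 FPKM in Abcb4KO and at 376, 348 and 196 in Abcb4KO_HDCA. In both, treated replicate 3 stood far below the other two. Cldn6, a tight junction protein, averaged 3.93 ± 0.687 FPKM (SD, n = 3) in Abcb4KO and 2.70 ± 0.593 in Abcb4KO_HDCA, and Slc4a2, the chloride and bicarbonate exchanger of bile ducts, differed by -0.13 ± 0.10. Slc4a2 was chosen after its values were seen. Epcam, a surface marker of duct cells, overlapped, at 10.3, 16.6 and 12.4 FPKM without and 9.08, 14.6 and 8.09 with HDCA. All 26 markers were lower once Abcb4KO replicate 1 was left out (median -0.40, against -0.06 over all genes), and 7 were wholly below, beside 14.1%. The median of the 26 was -0.07 without Abcb4KO replicate 2, and -0.14, -0.38 and -0.15 without Abcb4KO_HDCA replicates 1, 2 and 3.

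Of 31 cell cycle genes tested, 29 were lower (median -0.16), with E2f1, a transcription factor of S phase entry, the only one wholly below (-0.22 ± 0.12), beside 4.60% of all genes. With Abcb4KO replicate 1 left out, 10 of 31 were wholly below, beside 14.1%. Cdc20, an activator of the anaphase-promoting complex, was at 3.47, 3.77 and 2.83 FPKM without and 0.834, 2.84 and 2.47 with HDCA, the first treated library standing far below the rest. Mcm5, a subunit of the replicative helicase, averaged 3.02 ± 0.651 FPKM (SD, n = 3) in Abcb4KO and 2.21 ± 0.386 in Abcb4KO_HDCA. The list median was -0.07 without Abcb4KO_HDCA replicate 1, -0.24 without its replicate 3, -0.29 without Abcb4KO replicate 1 and -0.09 without Abcb4KO replicate 2.

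**Figure D4:**
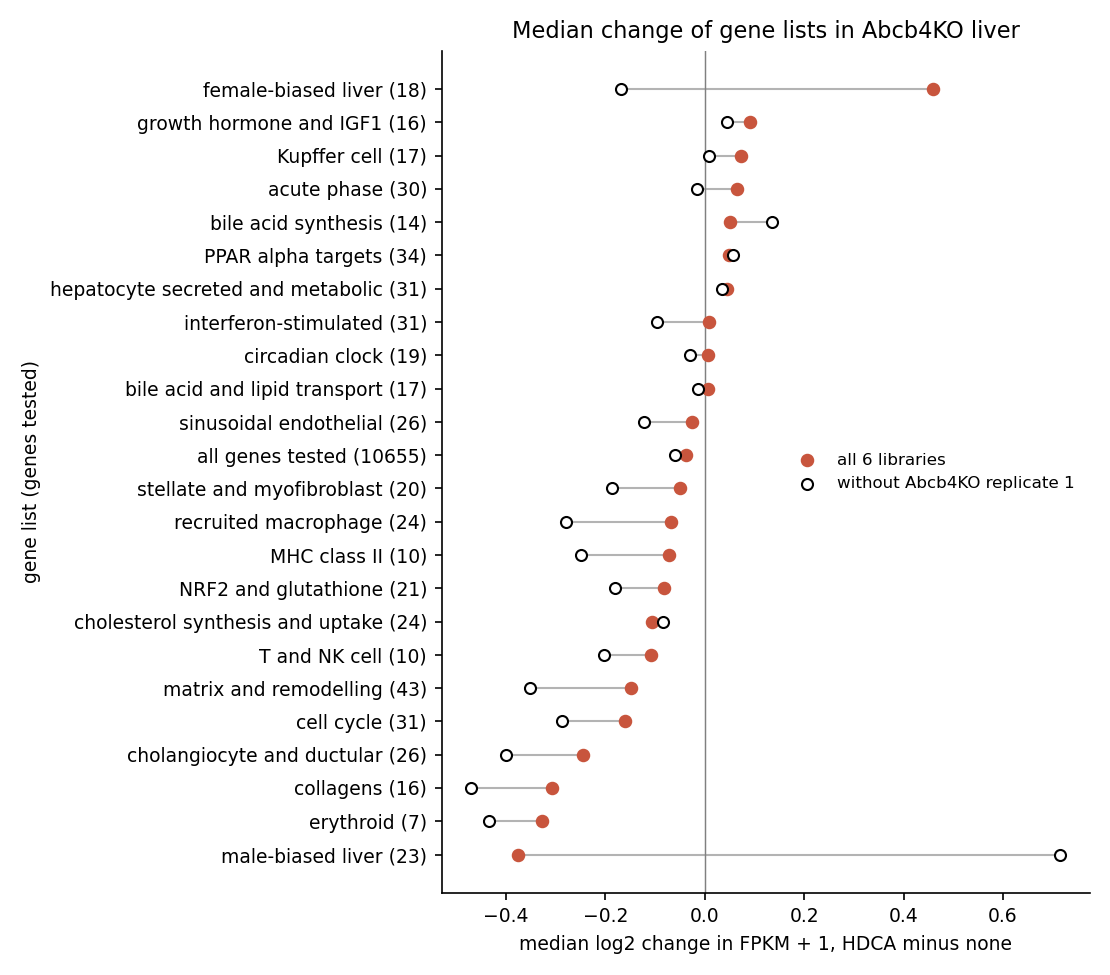
Median log2 change of FPKM + 1 (HDCA minus none) of 23 gene lists and of all genes tested, with the number of genes tested in brackets. Filled points use all 6 libraries and open points leave out Abcb4KO replicate 1. Collagens, cholangiocyte markers and cell cycle genes lie below all genes either way, while the 2 sex-biased lists cross 0 by the widest margins (0.46 to -0.17 and -0.37 to 0.72).

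Hepcidin and the remaining genes of lowest p came from several hepatocyte functions. Hamp (chromosome 7, 30942368 to 30944032), which encodes hepcidin, the hormone that blocks iron export into blood, was at 856, 1241 and 1468 FPKM without and 2577, 2029 and 1769 with HDCA. The groups did not overlap (0.86 ± 0.22), though the same-numbered libraries ran in opposite order within the groups. Apcs, serum amyloid P, was also wholly above (83.2 ± 1.10 FPKM (SD, n = 3) without and 100.5 ± 9.76 with HDCA). Hamp and Apcs were the 2 of 30 acute phase genes wholly above, beside 1.33% of all genes. In that list 21 were higher and 9 lower (median 0.07), and 14 were higher without Abcb4KO replicate 1 (median -0.01). Its lowest changes, -0.481 and -0.465, were those of 2 serum amyloid A genes (-0.345 and -0.297 without Abcb4KO replicate 1). Ugt2b37 (chromosome 5, 87240493 to 87254804), a glucuronosyltransferase, was at 6.90, 3.53 and 5.58 FPKM without and 8.19, 20.2 and 16.2 with HDCA (1.28 ± 0.32). It had the largest difference among the 10 named on the higher side. Cyp4f14, which hydroxylates fatty acids and leukotriene B4, was at 64.0, 58.8 and 64.9 FPKM without and 76.7, 85.6 and 81.9 with HDCA (0.37 ± 0.10). Csrp3, a LIM domain protein, differed by 0.49 ± 0.15, Tcim by 0.67 ± 0.20 and Tgm1, a transglutaminase, by 0.55 ± 0.17.

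On the lower side, several genes had narrow groups at low levels. Papss1, which makes the sulfate donor used in conjugation, was at 8.52, 8.25 and 8.32 FPKM without and 6.14, 6.42 and 6.29 with HDCA, an SD of 0.142 and 0.143 (-0.36 ± 0.09). Rab3a, a GTPase of secretory vesicles, was at 2.44, 2.48 and 2.37 FPKM without and 1.71, 1.71 and 1.59 with HDCA (-0.36 ± 0.10). Slc17a9, which loads nucleotides into vesicles, differed by -0.38 ± 0.10, and Mettl1, a tRNA methyltransferase, by -0.44 ± 0.13. Klhdc7a, a kelch domain protein, was at 7.48, 7.23 and 6.10 FPKM without and 5.08, 4.49 and 4.04 with HDCA (-0.52 ± 0.12).
Without Abcb4KO replicate 1 the 10 lowest p on the lower side also took in Bex4 (-0.73 ± 0.14), the Ras regulator Rasal1 (-0.53 ± 0.13), the aldo-keto reductase Akr1b7 (-0.89 ± 0.18), the dehydrogenase Rdh9 (-0.87 ± 0.19) and the prostaglandin D synthase Ptgds (-0.78 ± 0.18). With all 6 libraries these changes were -0.56 ± 0.17, -0.36 ± 0.17, -0.47 ± 0.33, -0.37 ± 0.39 and -0.06 ± 0.53 in the same order. Akr1b7 was at 0.701, 3.36 and 2.71 FPKM without and 1.71, 1.05 and 0.853 with HDCA. Rdh9 was at 18.8, 59.3 and 51.3 FPKM without and 31.2, 35.8 and 23.3 with HDCA, and Ptgds at 2.80, 13.3 and 18.6 without and 7.63, 10.3 and 8.58 with it. In these 3, untreated replicate 1 lay below every treated library. The higher side took in Lifr, a receptor subunit for LIF, at 14.9, 11.7 and 11.3 FPKM without and 16.9, 17.7 and 14.9 with HDCA (0.49 ± 0.12), and Ndufs6b (0.65 ± 0.15).

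The difference of the HDCA effect between Abcb4KO and BDL was tested in 1 limma model over all 12 libraries. The treatments differ in length (21 days and 4 days) as well as in model. Y-linked reads differ too: the Y-linked gene Ddx3y was at 9.35 to 10.9 FPKM in the BDL libraries. The 4 Y-linked genes summed to at most 0.016 FPKM in all Abcb4KO and Abcb4KO_HDCA libraries but Abcb4KO replicate 1 (20.1). Model, length and this difference cannot be told apart. limma called 0 of 10805 genes (0.00%) for that difference, 200 (1.85%) had an unadjusted p under 0.05, and the smallest adjusted p among the genes named here was 1.00. For Igf1 the log2 change was 0.49 in Abcb4KO and -0.38 ± 0.13 in BDL, where it was at 68.1, 56.0 and 54.9 FPKM without and 48.0, 42.1 and 46.7 with HDCA. The difference was 0.87 ± 0.18, and the change in BDL stayed between -0.43 and -0.28 without each BDL library in turn. Nr1d1 changed by 0.78 ± 0.48 in BDL, a difference of -1.80 ± 0.68, and Gsta1 by 0.66 ± 0.53, a difference of -1.68 ± 0.75. Both rest on BDL replicate 1, without which the changes in BDL were 0.15 for Nr1d1 and -0.19 for Gsta1. Nr1d1 was at 5.65, 20.9 and 26.7 FPKM in BDL and Gsta1 at 5.21, 31.8 and 38.8, replicate 1 far below the others. Of the 10 genes named on the higher side, 8 had a negative log2 change in BDL, and of the 10 on the lower side 8 had a positive one. Without BDL replicate 1 and BDL_HDCA replicate 2 the counts were 5 of 10 and 5 of 10. Nr0b2 (-0.81 ± 0.44) and Slc10a1 (0.13 ± 0.35) had the same sign in BDL as in Abcb4KO. For Nr0b2 the value was -0.16 without BDL_HDCA replicate 2, and for Slc10a1 it ran from -0.16 to 0.67 without each BDL library in turn. For 28 of the 10655 genes (0.263%) the HDCA libraries lay wholly on one side of the untreated ones in Abcb4KO and wholly on the other in BDL. The genes were selected for low p in Abcb4KO, so these counts support nothing about the models.

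**Figure D5:**
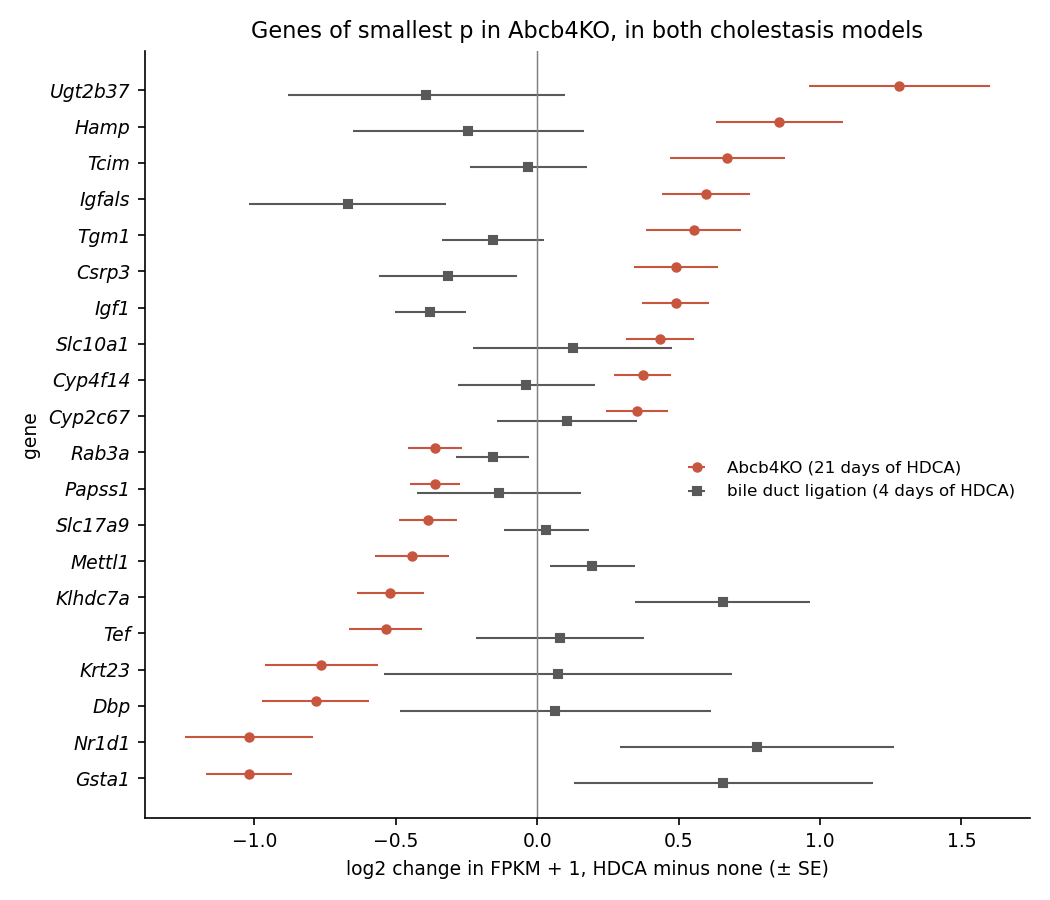
Log2 change of FPKM + 1 (HDCA minus none, ± SE) of the 20 genes of lowest p in Abcb4KO, in that model (red circles, fit on 6 libraries) and in bile duct ligation (grey squares, fit on 12 libraries). Igf1 and Igfals lie on opposite sides of 0 in the 2 models (0.60 and -0.67 for Igfals, the latter -0.24 without BDL_HDCA replicate 2 and 0.05 without BDL replicate 1 as well), and the bars of Slc10a1, Cyp2c67, Rab3a and Papss1 overlap.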

How the data were processed

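The authors deposited 1 table of FPKM values, fragments per kilobase of gene model scaled to the mapped total, for 16970 gene symbols in 12 libraries of polyA RNA from mouse liver. In their processing notes the submitters list HISAT2 2.0.5, DESeq2 1.20.0, featureCounts 1.5.0-p3, fastp, CASAVA 1.8 and the build GRCm38 (mm10), without roles. The treatment of strand and of multiply mapped reads is not given in the sources used here. If strand was ignored, a gene and its antisense partner are counted together. FPKM steps gave whole reads for 16968 genes (99.99%) within 0.02 of a read.

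FPKM is not a count, so limma 3.58.1 (R 4.3.3) with trend was fitted to log2(FPKM + 1) of the 6 Abcb4KO libraries, two-sided, with Benjamini-Hochberg adjustment over the 10655 genes tested and calls at an adjusted p under 0.05. The fit was also run on simulated reads with known changes, drawn independently for each library. That simulation held no library standing apart and no pattern shared by replicate number. It therefore does not show how the fit behaves on these libraries. Members, lists and tests were chosen with earlier results of these data known. The 47 lists (1015 entries) are described by counts and medians only.

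Named genes are the 10 of smallest p in each direction, with and without Abcb4KO replicate 1, with no overlap and a higher group averaging 2 FPKM or more. Up to 4 of smallest p per list described and 65 key genes were added, passing over unnamed predicted genes and antigen receptor segments. Gene positions come from GENCODE M21 and promoters from RefSeq, both GRCm38. Library deviations from the group mean correlated, for equal replicate numbers, at 0.432, 0.309 and 0.553 (other pairs -0.457 to -0.0031), so numbers were taken to pair libraries, from the values alone. A blocked fit was an alternative, among 17 for this comparison. No library was a duplicate of another (lowest chi-square per gene 34.4).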

Additional observations from a re-analysis of the deposited data

Results flagged for a closer look

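Among the genes named or considered for naming, 4 are given here because the 3 HDCA libraries lay wholly on one side of the untreated ones in Abcb4KO and wholly on the other side in BDL, as they did for 28 of all 10655 genes (0.263%). Genes were named in part for low p or for groups without overlap in Abcb4KO. The 4 therefore cannot be weighed against that share. Igf1 differed between the models by 0.8664 (log2 change in Abcb4KO minus that in BDL). The chemokine Ccl24, at 2.06, 1.40 and 2.31 FPKM without and 2.40, 2.58 and 2.63 with HDCA in Abcb4KO, differed by 1.1947. Klhdc7a differed by -1.1757, and Postn, the matrix protein periostin, at 5.36, 6.90 and 5.47 FPKM without and 2.46, 4.89 and 5.30 with HDCA in Abcb4KO, by -1.2006. The test of the difference itself called none of the 4 (limma adjusted p = 0.9999 for each). The change in BDL moved from 0.66 to 0.17 for Klhdc7a and from 0.75 to 0.45 for Postn without BDL replicate 1, and from -0.91 to -0.60 for Ccl24 without BDL_HDCA replicate 2. For Igf1 it moved from -0.38 to -0.22 without both.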

How the results depend on the processing

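Over all settings the count of genes called stayed at 0 except with the replicate block, where it was 1 (Cyp2c40). The pairs of that block were taken from these values, not from labels. That block changed no other call. The count at an unadjusted p under 0.05, 172 with the settings reported, was 407 with no filter on low values, 93 for genes averaging 5 FPKM or more, 61 in the fit on all 12 libraries, 399 with the replicate block, 388 with array weights and 513 without the libraries numbered 1 of both groups. It ran from 138 to 353 without each library in turn. limma-voom on recovered reads gave 140. All 20 genes of lowest p kept their sign in every setting that tested them. They were chosen for groups that do not overlap. Leaving out a library, the pseudocount, the block and the weights therefore could not turn their sign. Only settings that rescale the libraries could have done so. Of the 87 tested genes that the text names, 10 changed sign without 1 of the libraries: C8b ranged from -0.0381 to 0.678, Ces3b from -0.0765 to 0.926, Cyp27a1 from -0.0323 to 0.171, Cyp2a4 from -0.0753 to 2.97, Elovl3 from -2.19 to 0.715, Keg1 from -0.0977 to 0.649, Mup3 from -0.172 to 1.10, Ptgds from -0.777 to 0.407, Serpina1e from -1.12 to 2.22 and Ugt2b1 from -0.256 to 0.947. Among all 221 genes considered for naming, 22 changed sign without Abcb4KO replicate 2 and 25 without the libraries numbered 1. In BDL, chosen after seeing the data, leaving out each library gave log2 changes of -0.188 to 1.15 for Gsta1, -0.926 to -0.237 for Igfals and -0.160 to 0.672 for Slc10a1, and leaving out BDL replicate 1 with BDL_HDCA replicate 2 gave -0.0610 for Gsta1 and 0.0532 for Igfals. The cause was not tested. The difference between models stayed at 0 genes called without Abcb4KO replicate 1 and without BDL replicate 1 and BDL_HDCA replicate 2 (smallest adjusted p = 0.378). Counting error weighs most on genes near 1 FPKM, such as Dbp.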

Other observations

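Immune cell lists differed by replicate number. In the pair numbered 1 the median log2 difference (HDCA minus none) was 0.41 for 10 MHC class II genes and 0.40 for 24 markers of recruited macrophages, and in the pairs numbered 2 and 3 it was -0.35 and -0.21 for the former and -0.32 and -0.25 for the latter. The granzymes Gzma (0.481, 0.698 and 0.761 FPKM without and 1.92, 1.34 and 1.24 with HDCA) and Gzmb (0.579, 0.548 and 0.994 without and 1.48, 1.24 and 1.42 with HDCA) were wholly above, and Cd4, the coreceptor of helper T cells, was wholly below, at 1.01, 1.48 and 1.11 FPKM without and 0.538, 0.625 and 0.811 with HDCA. These levels are low, and the T and NK cell list summed to 19.4 to 33.0 FPKM without and 25.6 to 28.5 with HDCA. Of its 10 genes tested, 6 were lower (median -0.11), and 8 without Abcb4KO replicate 1 (median -0.20). Gzma and Gzmb were the 2 wholly above, beside 1.33% of all genes, and Cd4 the 1 wholly below, beside 4.60%. The 3 do not stand for the list.

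Of 24 genes of cholesterol synthesis and uptake, 21 were lower with HDCA (median -0.10), among them Nsdhl, at 34.2, 34.5 and 31.5 FPKM without and 22.9, 30.1 and 26.9 with HDCA, and Fdps, at 157, 160 and 143 FPKM without and 116, 118 and 151 with it, where treated replicate 3 overlapped. The median was -0.03 without the libraries numbered 1 and 0.01 without Abcb4KO replicate 2. All 7 erythroid genes tested were lower (median -0.33), and 6 of 7 without Abcb4KO replicate 1 (median -0.43). Alas1, the first enzyme of haem synthesis in liver, was at 22.7, 21.5 and 67.4 FPKM without and 80.9, 57.1 and 62.7 with HDCA, and Cdkn1a, the cell cycle inhibitor p21, at 12.8, 10.3 and 19.5 without and 17.3, 26.4 and 38.8 with it, and in both untreated replicate 3 overlapped the treated libraries. The transcription factor Onecut1 was at 3.10, 3.94 and 9.12 FPKM without and 14.3, 4.59 and 8.88 with HDCA; it was chosen after its values were seen.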
